A study of Mus musculus with 6 samples.

Results

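Kinesins are motor proteins that walk along microtubules or take them apart. The genes described here are the protein coding mouse genes whose symbol is Kif followed by a digit. The rule found 39 of the 32285 genes in the table. They were sorted by role into 12 mitotic kinesins, 8 axonal transport kinesins, 10 ciliary kinesins and 9 others. The GSK group was neocortical cells of wild-type E10.5 mouse embryos given GSK2837808A, a lactate dehydrogenase inhibitor, for about 24 h in culture, and the DMSO group was the same kind of culture given the solvent alone, with 3 libraries in each group. The dose is labelled as 100 mM, far above what medium would normally hold, and could not be checked. Each library was made from about 1000 live cells sorted on CD133, a surface protein of radial glial progenitors, and sequenced in bulk by Smart-seq2. Whether the 3 libraries of a group are separate cultures or animals is not labelled, so the spread behind each p-value may be technical.

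In dividing cells, mitotic kinesins push the spindle poles apart, line up chromosomes, and build the midzone and midbody that split the daughter cells. Postmitotic neurons use kinesin-1 and kinesin-3 motors to carry vesicles and mitochondria down the axon, and kinesin-2 motors carry cargo into cilia and axons. Radial glia divide at the ventricle, bear a primary cilium there, and give rise to intermediate progenitors and neurons.

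The libraries held 7187089 to 10224348 recovered reads in the GSK group and 7837721 to 10051625 in the DMSO group (two-sided exact permutation test of depth, p = 0.8, with 0.1 the lowest p this design can give). Radial glia markers were present in both groups: Prom1, the gene of CD133, averaged 591 ± 96.3 normalised reads in GSK and 1183 ± 72.2 in DMSO libraries (SD, n = 3 each). By the limma test used throughout, in which 17.0% of all genes were called higher and 19.1% lower in GSK, 8 of 11 radial glia markers were lower and none higher, and their sum ran from 11916 to 14908 in GSK and from 21285 to 22241 in DMSO libraries. Markers of other cells were present too, and none of those listed was at 0 in every library. The summed level of 10 neuron markers ran from 22479 to 27759 normalised reads in GSK and from 7602 to 15303 in DMSO libraries, that of 9 erythroid markers from 183780 to 273997 in GSK and from 2391 to 20598 in DMSO, and that of 10 microglia and macrophage markers from 597 to 1380.5 in GSK and from 96.2 to 402 in DMSO. Of 8 erythroid markers tested 7 were called higher, a count that ran from 2 (without GSK replicate 2 or 3) to 8 with 1 library left out. Of 10 microglia and macrophage markers 6 were called higher, or 4 to 9 with 1 library left out. Of 7 intermediate progenitor markers 6 were called higher, and their sum ran from 2711 to 3792 in GSK and from 1257 to 1811 in DMSO libraries. Mesenchyme and pericyte markers summed to 17288 to 26813 in GSK and 27392 to 34582 in DMSO libraries, and endothelial markers to 49.9 to 74.0 in GSK and 57.4 to 83.6 in DMSO, with 2 of 9 mesenchyme markers called lower (1 without DMSO replicate 3 and 4 without GSK replicate 1) and 0 of 3 endothelial markers called. The part of these cells in the results on kinesins was not tested.

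The promoter stretches that follow show letters found near the start of some kinesin genes, which the choice of genes did not use. They come from the RefSeq windows around the gene start (GRCm38.p6), read 5′ to 3′ on the gene's strand, and the capitals mark the letters TTTGAA or their complement. These letters spell the cell cycle genes homology region (CHR), the element through which the MuvB complex is known to act on genes of G2 and mitosis.
Kif11, chr19:37376351-37376380, plus strand: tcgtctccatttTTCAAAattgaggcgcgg
Kif15, chr9:122951050-122951079, plus strand: tggggcgccaaaTTCAAAtctgcggccatc
Kif22, chr7:127042420-127042449, minus strand: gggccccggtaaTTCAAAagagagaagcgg
Kif26b, chr1:178529104-178529133, plus strand: tgggagaatttcTTTGAActcagttagcga

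The match began 19 bases before the RefSeq start in Kif11 and Kif15 and 17 bases before it in Kif22, all mitotic kinesins. It began 9 bases before the start in Kif26b, which is not a mitotic kinesin. In Kif15 the letters gcgccaaa, an E2F-like element, ended at the base before the match. A longer stretch of Kif11 and one of Kif18b show the other repeated element, the CCAAT box bound by NF-Y, again in capitals.
Kif11, chr19:37376262-37376381, plus strand: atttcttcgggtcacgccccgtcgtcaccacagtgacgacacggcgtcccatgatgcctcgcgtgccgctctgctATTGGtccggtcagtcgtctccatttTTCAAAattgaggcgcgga
Kif18b, chr11:102925125-102925244, minus strand: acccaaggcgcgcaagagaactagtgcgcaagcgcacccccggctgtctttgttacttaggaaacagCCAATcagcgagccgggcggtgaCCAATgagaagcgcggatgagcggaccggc

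RefSeq windows were found for 31 of the 39 members. In the 250 bases before the start, on either strand, TTTGAA was found in 5 of 11 windows of mitotic kinesins, against 5252 of the 32851 windows of all genes. CCAAT was found in 7 of the 11, against 33.9% of all windows, and either TTTCCCGC or TTTGGCGC in 2 of the 11 (Kif15 and Kif18a), against 1.30%. These 11 windows are not those of the mitotic kinesins tested below. They include Kif2b, which held CCAAT and was too low to test, and none was found for Kif20a. Of 7 windows of axonal transport kinesins, 1 held TTTGAA and 2 held CCAAT, both of these at Kif1b. Of 9 ciliary windows, 1 held TTTGAA and 5 held CCAAT, and Kif24 held 4 copies of CCAAT. Of 8 windows of the other kinesins, 1 held TTTGAA and 1 held CCAAT, both at Kif26b. A match of letters is a description and not a binding site. The RefSeq start lay more than 300 bases inside the GENCODE gene for Kif14 (1505), Kif2c (3867), Kif4 (328), Kif27 (4175), Kif17 (11816) and the Kif1a window with TTTGAA (19471), so these windows do not describe the outermost start. Without them, TTTGAA was found in 3 of 8 mitotic windows (Kif11, Kif15 and Kif22), 0 of 6 axonal transport windows and 0 of 7 ciliary ones. CCAAT was then found in 5 of 8 mitotic, 2 of 6 axonal transport and 4 of 7 ciliary windows. None of the windows of the other kinesins was left out. The windows of all genes were not cut in this way, so their shares are not a like background for these counts.

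Mitotic kinesin transcripts were lower in GSK libraries for all 11 mitotic members that could be tested. Levels in GSK were between 23.5% (Kif11) and 62.4% (Kif20a) of those in DMSO. That all 11 fell depends on how the genes were sorted. Kif2a, whose relatives Kif2b and Kif2c were sorted as mitotic, was placed among the other kinesins. It was not called lower, with a mean of 383 normalised reads in GSK and 344 in DMSO libraries (log2 fold change 0.18). Transport kinesins were split: Kif5a, Kif21b and Kif3c were higher in GSK and Kif1b and Kif21a lower. These counts depend on the sorting as well. Kif13a, a vesicle carrier called lower, was placed among the other kinesins, and Kif3a, a kinesin-2 subunit called higher, among the ciliary ones. Of the ciliary kinesins, Kif3a, Kif9 and Kif19a were higher and Kif24 was lower. Fewer cells of a type and less RNA per cell cannot be told apart in bulk libraries.

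The test was limma on log2(value + 1) across 15073 genes (mean over all libraries of 10 normalised reads or more), with Benjamini-Hochberg adjustment over all of them and a threshold of 0.05. In it 36.1% of all genes were called, 17.0% higher and 19.1% lower in GSK, with a median log2 fold change of 0.01. Against this background 23 of the 34 kinesin genes tested were called, 6 higher and 17 lower. Among mitotic kinesins 11 of 11 were lower (median log2 fold change -1.48). Among axonal transport kinesins 3 of 8 were higher and 2 lower (median -0.0031). Among ciliary kinesins 3 of 8 were higher and 1 lower (median 0.37), and among the others 3 of 7 were lower and none higher (median -0.14). The groups did not overlap for 11 of 11 mitotic, 5 of 8 axonal transport, 5 of 8 ciliary and 3 of 7 other kinesins, against 47.2% of all genes tested.

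**Figure D1:**
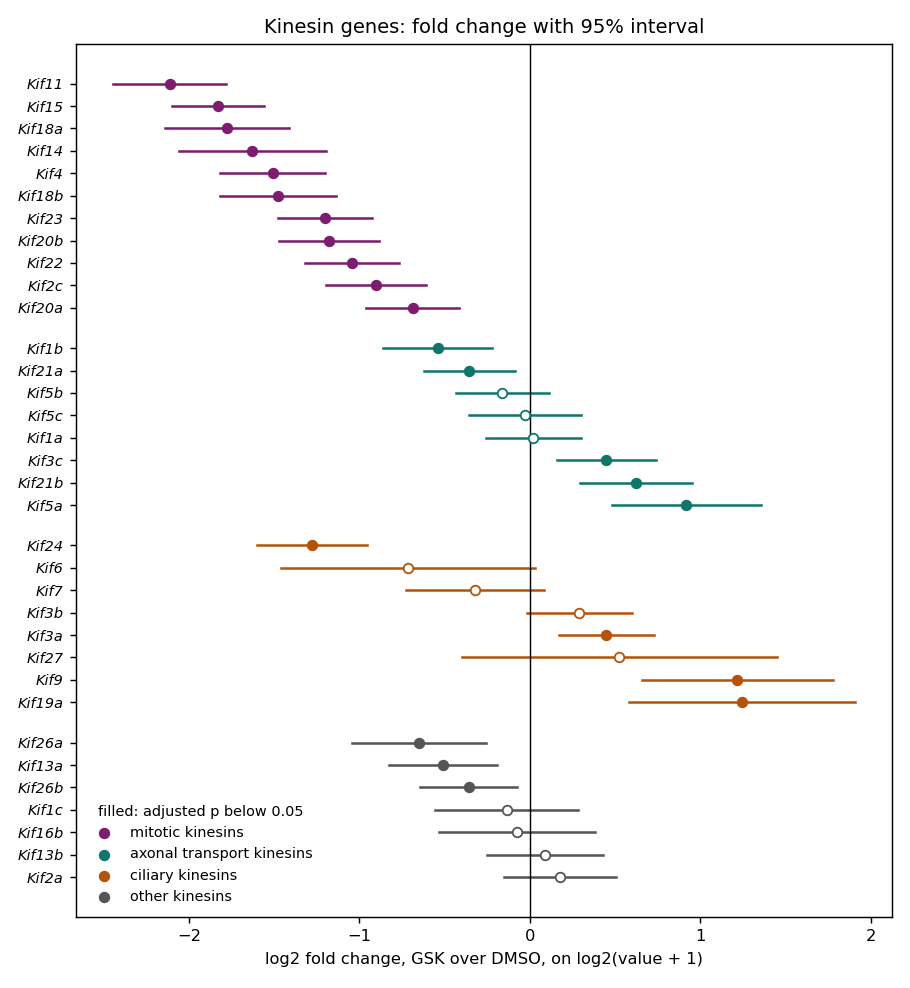
Log2 fold change of GSK over DMSO libraries on the log2(value + 1) scale for the 34 kinesin genes tested, with 95% intervals from limma; filled points passed an adjusted p of 0.05. All 11 mitotic kinesins lie left of 0, from -2.11 to -0.69, while the axonal transport kinesins run from -0.54 to 0.92 and the ciliary ones from -1.28 to 1.25.

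The motors that push the spindle apart fell most. Kif11 (chromosome 19, 37376403 to 37421859, GRCm38, GENCODE vM21), whose product pushes the spindle poles apart, had 396, 293 and 239.8 normalised reads in GSK libraries, against 1446, 1345 and 1167 in DMSO libraries. The highest GSK value lay far under the lowest DMSO value. On the log2 scale Kif11 changed by -2.11 (SE 0.16, limma adjusted p = 4.42e-09). Kif15 (chromosome 9, 122951046 to 123018733), a motor that can share the work of Kif11 in human cells, had 247, 288 and 251 in GSK and 963, 940.0 and 893 in DMSO libraries (log2 fold change -1.83, SE 0.13, limma adjusted p = 1.59e-09).

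Motors that set the alignment and dynamics of chromosomes and spindle microtubules fell by differing amounts. Kif18a, which damps the swings of chromosomes at the metaphase plate, had 189, 187 and 116 normalised reads in GSK, against 618, 503 and 535 in DMSO libraries (log2 fold change -1.77, SE 0.17). Kif18b, which shortens astral microtubules, had 129, 131 and 101 in GSK and 291, 383 and 335 in DMSO libraries (-1.48, SE 0.16). Both sets of 3 GSK values were well apart from the DMSO values, and in both genes GSK replicate 3 was the lowest. Kif22, a chromokinesin that pushes chromosome arms away from the poles, had 547, 702 and 594 in GSK, against 1350.1, 1272 and 1163 in DMSO libraries (-1.04, SE 0.13). Kif2c, which removes wrong kinetochore attachments by taking microtubules apart, had 312, 416 and 367 in GSK and 759.5, 671 and 612 in DMSO libraries (-0.90, SE 0.14). For these 2 genes GSK replicate 1 was the lowest library. The limma adjusted p-values of the 4 genes ran from 1.48e-07 for Kif18a to 4.61e-05 for Kif2c.

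The motors of the midzone and of cytokinesis also fell, over a wide range. Kif14, which binds citron kinase at the midbody, had 81.9, 79.9 and 45.6 normalised reads in GSK, against 194, 231 and 203 in DMSO libraries (log2 fold change -1.63, SE 0.21). Kif4, a chromokinesin that limits the length of the midzone with PRC1, had 269, 223 and 185 in GSK and 611, 688 and 613 in DMSO libraries (-1.51, SE 0.15). Each gene's groups were clear of each other, and GSK replicate 3 was again the lowest. Kif23, the motor of the centralspindlin complex, had 418, 438 and 363 in GSK, against 1039, 879 and 887 in DMSO libraries (-1.20, SE 0.13). Kif20b, a midbody motor whose loss gives a small brain in mice, had 250.3, 292 and 258 in GSK and 706, 534 and 584 in DMSO libraries (-1.18, SE 0.14). Their limma adjusted p-values ran from 1.32e-07 for Kif4 to 3.81e-06 for Kif14. Kif20a, which brings the chromosomal passenger complex to the midzone, had 678, 885 and 767 in GSK and 1319, 1224 and 1190.5 in DMSO libraries. Its fall was the smallest of the class (-0.69, SE 0.13, limma adjusted p = 0.000359).

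**Figure D2:**
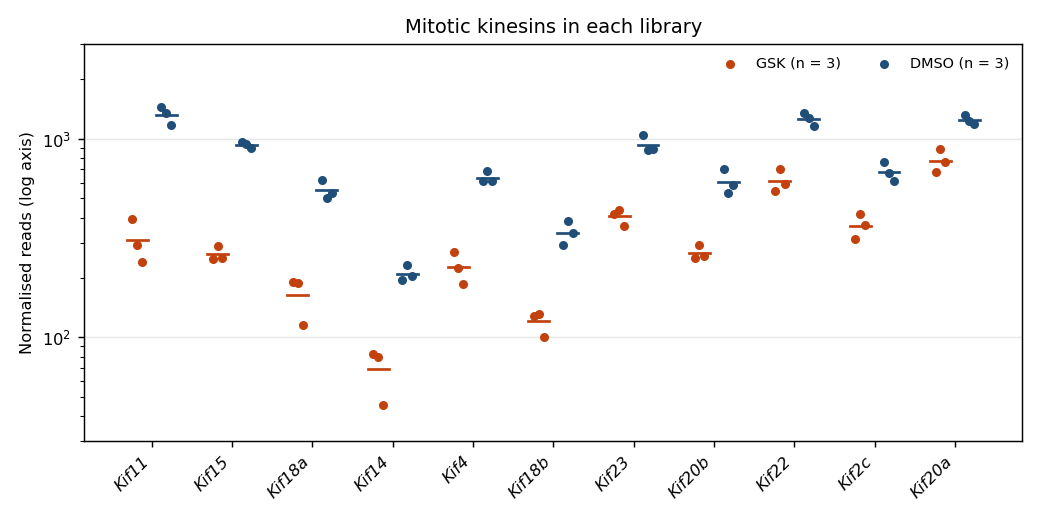
Normalised reads of the 11 tested mitotic kinesins in each library on a log axis, GSK left and DMSO right of each tick, points being libraries and lines group means (n = 3 each). In each gene the 3 GSK points lie under the 3 DMSO points, with the widest gap at Kif11 (309.6 against 1319 on average) and the narrowest at Kif20a (777 against 1245).

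Some of these genes share exons with a neighbour on the other strand, and Smart-seq2 reads do not carry strand. Of the exon bases of Kif20a, 29.3% are also exons of Cdc23, a gene of the anaphase-promoting complex, which had a log2 fold change of -0.33. For Kif4 15.1% are shared with Pdzd11 (-0.21). The level of Kif20a, and the size of its fall, are uncertain to that extent. Kif2b, the remaining mitotic member, averaged 1.82 normalised reads in GSK and 0.286 in DMSO libraries and was below the filter.

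The order of the falls changed the make-up of the mitotic set. Compared per kb of exon, Kif11 stood at 41.5 normalised reads per kb in GSK and 177 in DMSO libraries, which placed it 16th of 39 in GSK and 4th in DMSO. Kif20a was the 3rd highest kinesin in GSK, with 179 per kb, and the highest in DMSO, with 287. Within each library, the per-kb level of Kif11 was 0.475, 0.274 and 0.265 of that of Kif22 in GSK, against 0.704, 0.694 and 0.660 in DMSO libraries. The 95% intervals of the log2 fold changes of Kif11 (-2.44 to -1.78) and Kif22 (-1.32 to -0.77) did not meet. Those of neighbours in the order, such as Kif15 (-2.10 to -1.56) and Kif18a (-2.14 to -1.41), overlapped.

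Genes that act with the mitotic kinesins were mostly lower as well. In a list of 24 spindle and midzone genes, 23 were lower and none higher, against 19.1% and 17.0% of all genes (median log2 fold change -1.27, against 0.01 over all genes). Aurkb and Incenp, of the passenger complex that Kif20a carries, had log2 fold changes of -1.72 and -1.59. Plk1, a mitotic kinase, had -1.70, and Prc1, the midzone bundler that works with Kif4, had -1.55. The exception was Numa1, a spindle pole gene, at -0.15 (95% interval -0.42 to 0.12). Among 20 genes of the MuvB, B-Myb, FoxM1 and E2F regulators 12 were lower and 2 higher, against 19.1% and 17.0% of all genes (median -0.58). The 2 higher calls numbered 0 with equal library totals, without DMSO replicate 2 or without GSK replicate 2. Foxm1, an activator of G2 and mitosis genes, averaged 147 ± 34.8 normalised reads in GSK and 595 ± 19.5 in DMSO libraries (log2 fold change -2.04, SE 0.16, limma adjusted p = 9.8e-09). Mybl2, which encodes B-Myb, had -1.55 and E2f8 -1.92, and E2f7 and E2f3 had -1.37 and -1.31.

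Of 5 kinesin superfamily genes that the rule does not take in, 3 were lower and 1 higher, against 19.1% and 17.0% of all genes. Cenpe, the kinetochore motor, averaged 593 ± 60.3 normalised reads in GSK and 1135 ± 85.1 in DMSO libraries (log2 fold change -0.94, SE 0.13, limma adjusted p = 9.89e-06). Kifc1 (-0.52), a spindle motor that walks to the minus end, and Kifc5b (-0.75) are close copies whose reads may be split between them. Kifc2, a minus-end motor of neurons, was higher (0.96).

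The axonal transport kinesins moved as single genes, in both directions. Kif5a (chromosome 10, 127225696 to 127263348), the neuron-specific heavy chain of kinesin-1, had 494, 458 and 436 normalised reads in GSK libraries, against 274, 327 and 162 in DMSO libraries. Every GSK library was above every DMSO library, and DMSO replicate 3 was far below the other DMSO libraries. On the log2 scale Kif5a changed by 0.92 (SE 0.20, limma adjusted p = 0.00262). It did not pass without GSK replicate 1 (0.87, adjusted p = 0.0727).

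Kif21b (chromosome 1, 136131389 to 136177998), a kinesin-4 of dendrites and axons, had 1102, 957 and 852 in GSK and 550.2, 828 and 538 in DMSO libraries, where DMSO replicate 2 came near the lowest GSK library (log2 fold change 0.62, SE 0.16, limma adjusted p = 0.00411). Its call was lost when limma's variance prior had no trend or robust step (adjusted p = 0.0556). Kif3c, a kinesin-2 subunit found mainly in neurons, had 633, 529 and 528 in GSK, against 423, 461 and 355 in DMSO libraries (0.45, SE 0.14, limma adjusted p = 0.0156). The groups of Kif3c were apart by little, and it did not pass without DMSO replicate 3 (0.35, adjusted p = 0.097) or with equal library totals (0.38, adjusted p = 0.0582). Nor did Kif3c pass without the trend and robust step of limma's prior (adjusted p = 0.0654). Antisense genes overlap Kif3c: 35.3% of its exon bases are shared with 1110002L01Rik (log2 fold change 0.18) and 7.94% with Gm48512 (0.59).

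No change was called for the other kinesin-1 heavy chains. Kif5b, the form found in all tissues, had 1832, 1893 and 2137 normalised reads in GSK, against 2348, 2135 and 2069 in DMSO libraries (log2 fold change -0.16, 95% interval -0.43 to 0.11). Kif5c, another neuronal form, had 1364, 1046 and 932 in GSK and 1133, 1349.8 and 921 in DMSO libraries (-0.03, -0.36 to 0.30). The groups of both genes overlapped. Per kb of exon, Kif5a was at 0.308, 0.277 and 0.233 of the level of Kif5b in GSK, against 0.133, 0.175 and 0.08925 in DMSO libraries.

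Neither kinesin-3 motor of synaptic vesicle precursors was called higher. Kif1a had 1773, 1702 and 1511 in GSK, against 1522, 1899 and 1507 in DMSO libraries (log2 fold change 0.02, 95% interval -0.26 to 0.30), with groups that overlapped. Kif1b (chromosome 4, 149176319 to 149307693), which also carries mitochondria, fell, with 2049, 1619.9 and 1285 in GSK and 2147, 2409 and 2541 in DMSO libraries (-0.54, SE 0.15, limma adjusted p = 0.00935). GSK replicate 1 came close to the lowest DMSO library, and the call was lost when limma's variance prior had no trend or robust step (adjusted p = 0.0703). Kif21a, a kinesin-4 that restrains microtubule growth, had 641, 759 and 743 in GSK, against 908, 988 and 842 in DMSO libraries (-0.35, SE 0.13, limma adjusted p = 0.0359). Kif21a lost its call without DMSO replicate 1 (adjusted p = 0.092), DMSO replicate 2 (0.173) or GSK replicate 2 (0.0703). It also lost it without the trend and robust step of limma's prior (0.0932) and with no filter on low values (0.0696).

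**Figure D3:**
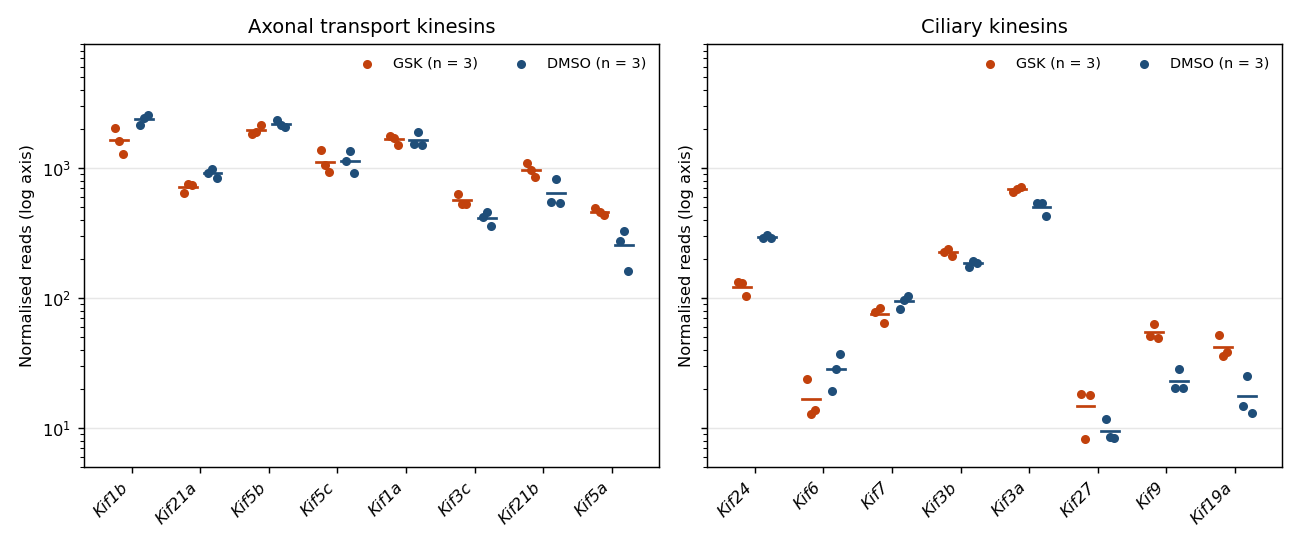
Normalised reads of the 8 axonal transport kinesins (left) and the 8 tested ciliary kinesins (right) in each library on a log axis, GSK left and DMSO right of each tick, lines being group means (n = 3 each). Kif5a, Kif21b, Kif3c, Kif3a, Kif3b, Kif9 and Kif19a have all GSK points above the DMSO points, and Kif24 has them far below.

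Neuron markers moved beside the 3 transport kinesins that rose. The summed neuron markers were 22479, 25663 and 27759 normalised reads in GSK and 12756, 15303 and 7602 in DMSO libraries, with 5 of 10 markers called higher, against 17.0% of all genes, among them Tubb3 at a log2 fold change of 1.27, and 1 lower (Neurod6, -2.20). The count of neuron markers called higher was 3 without GSK replicate 1, 8 without DMSO replicate 2 and 9 with edgeR. In DMSO libraries Kif5a, Kif21b and Kif3c, like the neuron marker sum, were highest in replicate 2 and lowest in replicate 3. In GSK libraries all 3 kinesins were highest in replicate 1, where the neuron marker sum was lowest. Tubb3 made up much of that sum, with 11529, 14490 and 16019 in GSK libraries. Single markers differed: Dcx, Map2 and Tbr1 were highest in GSK replicate 1, like the kinesins, and the other listed neuron markers were lowest there. The part of neurons in these rises was not tested.

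Of 15 light chain and adaptor genes, which link transport kinesins to cargo, 4 were higher and 2 lower, against 17.0% and 19.1% of all genes (median log2 fold change 0.11). The higher calls numbered 0 with equal library totals or without GSK replicate 2, 1 without DMSO replicate 2 or 3, and 2 without DMSO replicate 1 or GSK replicate 3. The lower calls numbered 0 without DMSO replicate 2 or GSK replicate 2. Klc1, a light chain abundant in neurons, averaged 1913 ± 87.1 normalised reads in GSK and 1986 ± 283 in DMSO libraries (-0.05, 95% interval -0.33 to 0.24). Klc4, another light chain, had 0.43 and Madd, a linker of Kif1a and Kif1b to vesicles, 0.42. Kifbp, which keeps kinesin motors off microtubules, had 0.65, and Rhot2, which couples mitochondria to motors, had -0.44. Of 21 genes of cytoplasmic dynein and dynactin, the machine that walks the other way, 10 were higher and 2 lower, against 17.0% and 19.1% of all genes (median 0.25). Without DMSO replicate 2 or GSK replicate 2 the higher calls numbered 6, and the lower calls 1, as they did without GSK replicate 3. Dynlt3, Dynlt1b and Dctn5 had log2 fold changes of 0.94, 0.82 and 0.67, whereas Nde1, a dynein regulator needed for the division of radial glia, had -1.11 (SE 0.13, limma adjusted p = 1.43e-06).

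Among ciliary kinesins, the 2 motor subunits of heterotrimeric kinesin-2, which powers transport into cilia, were both higher on average. Kif3a (chromosome 11, 53567379 to 53601967) had 651, 685 and 717 normalised reads in GSK, against 539.6, 542 and 427 in DMSO libraries (log2 fold change 0.45, SE 0.13, limma adjusted p = 0.0118). Kif3b had 226, 239 and 212 in GSK and 174, 194 and 185 in DMSO libraries and did not pass (0.29, 95% interval -0.02 to 0.60, limma adjusted p = 0.133). The groups did not overlap for either gene. Kif3a lost its call without DMSO replicate 3 (0.34, limma adjusted p = 0.0846). It was also lost when limma's variance prior had no trend or robust step (adjusted p = 0.0543). Kifap3, the accessory subunit of the same motor, averaged 797 ± 31.5 in GSK and 741 ± 27.6 in DMSO libraries (0.11, -0.15 to 0.36).

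Kif24 (chromosome 4, 41390745 to 41464887) went the other way. Its product trims centriole microtubules and holds back the growth of the primary cilium in human cells. It had 132, 131 and 104 normalised reads in GSK, against 290.0, 308 and 292 in DMSO libraries (log2 fold change -1.28, SE 0.16, limma adjusted p = 2.22e-06). The groups were far apart, and its change lay within the range of the mitotic kinesins. Kif24 was the sole ciliary member called lower.

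Kinesins of motile cilia and sperm tails were low in both groups, and some rose. Kif9, a motor of the central apparatus of motile cilia, had 51.2, 63.4 and 48.8 normalised reads in GSK and 20.2, 28.4 and 20.4 in DMSO libraries (log2 fold change 1.22, SE 0.27, limma adjusted p = 0.00139). Kif19a, which sets the length of motile cilia by taking microtubules apart at the tip, had 52.3, 35.8 and 38.2 in GSK, against 14.9, 24.9 and 13.01 in DMSO libraries (1.25, SE 0.32, limma adjusted p = 0.00438). All GSK libraries were above all DMSO libraries in both genes, at levels of 12.7 and 10.4 per kb in GSK and 5.35 and 4.33 per kb in DMSO, 28th and 30th of the 39 kinesins per kb in GSK.

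Kif6 (-0.71, 95% interval -1.46 to 0.03) and Kif27 (0.52, -0.40 to 1.45), also of motile cilia, did not pass, and their wide intervals go with means of 16.9 and 14.8 normalised reads in GSK and 28.2 and 9.55 in DMSO libraries. Kif6 did pass without GSK replicate 1 (-0.98, adjusted p = 0.0413). Kif7, which regulates Hedgehog signalling at the tip of the primary cilium, averaged 75.6 ± 9.77 in GSK and 94.7 ± 10.8 in DMSO libraries (-0.32, -0.73 to 0.08). Of its exon bases, 19.1% are shared with the antisense gene 9330171B17Rik. In the low members below the filter, Kif17, a homodimeric kinesin-2, had 13.7, 11.9 and 13.8 in GSK and 4.25, 9.45 and 3.72 in DMSO libraries, and Kif19b had 0, 0.919 and 0 in GSK, against 5.31, 2.58 and 3.72 in DMSO libraries.

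Of 26 other genes of intraflagellar transport, its dynein-2 and the BBSome, 5 were higher and 2 lower, against 17.0% and 19.1% of all genes (median log2 fold change 0.21). The higher calls numbered 3 without GSK replicate 2. The lower calls numbered 4 without GSK replicate 1, and 1 without DMSO replicate 1 or 2 or GSK replicate 2 or 3. Ift46 had a log2 fold change of 0.84, Bbs4 of 0.72 and Ift20 of 0.64, whereas Ift27 had -0.54.

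Among the 9 other kinesins 7 were tested, of which 3 were lower and none higher, against 19.1% and 17.0% of all genes. Kif26a, which has a motor domain without ATPase activity, had 101, 116 and 79.6 normalised reads in GSK, against 135, 186 and 146 in DMSO libraries (log2 fold change -0.65, SE 0.19, limma adjusted p = 0.0101). Its relative Kif26b had 1215, 1290.0 and 1054 in GSK and 1378, 1414 and 1785 in DMSO libraries (-0.36, SE 0.14, limma adjusted p = 0.0464). Neither gene's groups overlapped, but Kif26a lost its call without DMSO replicate 2 (adjusted p = 0.0778), and Kif26b was lost in 8 of 16 other settings. Of the exon bases of Kif26b, 6.19% are shared with the antisense gene Gm16564, itself lower at -0.48. Kif13a, a carrier of endosomal vesicles, had 140.0, 157 and 169.8 in GSK, against 229, 209.6 and 225 in DMSO libraries (-0.51, SE 0.15, limma adjusted p = 0.013).

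No change passed for Kif13b (0.09, 95% interval -0.25 to 0.43), Kif16b (-0.08, -0.53 to 0.38), Kif1c (-0.14, -0.55 to 0.28) or Kif2a (0.18, -0.15 to 0.50). Kif2a, a microtubule depolymerase that prunes axon branches, averaged 383 ± 22.5 normalised reads in GSK and 344 ± 80.5 in DMSO libraries, and 19.2% of its exon bases are shared with Dimt1, which was lower (-0.60). Kif12 and Kif28 were below the filter, with means of 1.06 and 6.97 in GSK and 3.32 and 5.53 in DMSO libraries. Kif27 alone of the tested members averaged under 10 in 1 group.

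As a pool, kinesin transcripts were lower in GSK libraries, and mitotic motors held a smaller share of them. Summed per kb of exon over all 39 genes, kinesin levels were 2196, 2222 and 2038 normalised reads per kb in GSK, against 3063, 3081 and 2785 in DMSO libraries. Mitotic kinesins summed to 642 ± 59.7 per kb in GSK and 1454 ± 88.7 in DMSO libraries (SD, n = 3 each). Axonal transport kinesins summed to 1005 ± 61.7 per kb in GSK and 1029 ± 94.0 in DMSO libraries, with ranges that overlapped. Ciliary kinesins summed to 294 ± 3.80 per kb in GSK and 249 ± 19.3 in DMSO libraries, and the others to 211 ± 15.2 in GSK and 245 ± 10.8 in DMSO libraries. The share of mitotic kinesins was 28.1%, 31.9% and 29.3% in GSK, against 50.3%, 47.2% and 49.0% in DMSO libraries, and that of axonal transport kinesins was 48.8%, 44.6% and 46.7% in GSK, against 33.3%, 36.6% and 33.7% in DMSO libraries. The log2 ratio of the mitotic over the axonal transport sum was -0.80, -0.48 and -0.67 in GSK and 0.60, 0.37 and 0.54 in DMSO libraries. The ratio was below 0 in every GSK library and above 0 in every DMSO library. These sums describe the chosen genes and were not tested.

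**Figure D4:**
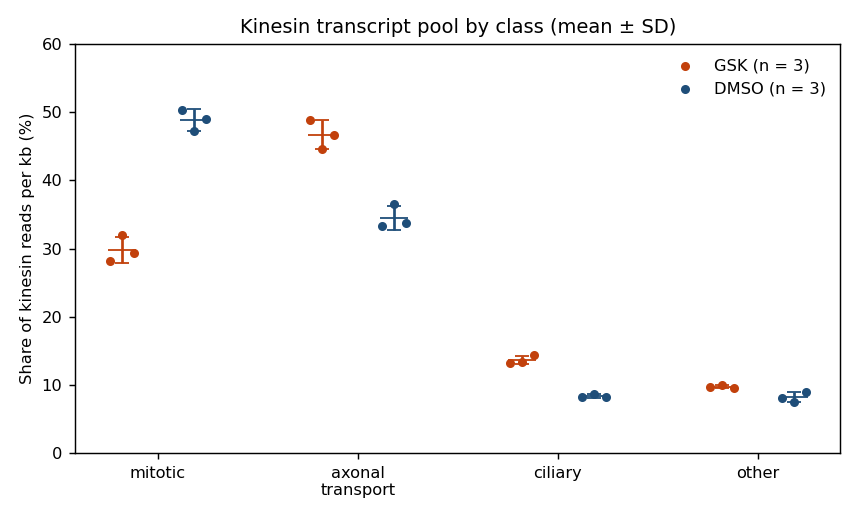
Share of the summed kinesin reads per kb of exon held by each class, in percent, with points for libraries and bars for mean ± SD (n = 3 each), GSK left and DMSO right. Mitotic kinesins hold 29.8% in GSK and 48.8% in DMSO libraries on average, and axonal transport kinesins 46.7% in GSK and 34.5% in DMSO libraries.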

How the data were processed

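Per the labels, about 1000 CD133-positive, DAPI-negative cells were sorted per library. The deposited signal values are the authors' normalised read counts, 1 per gene and library, repeated on every transcript row; 1 row per gene was kept. Per the submitters' processing notes, the tools and builds included STAR, DESeq, GRCm38 and mm10; no source used here gives the read counter or annotation release. Divided by the lowest nonzero value of its library, each nonzero value (100%) came out whole within 0.01, so whole reads were recovered. limma 3.58.1 in R 4.3.3 was run on log2(value + 1), with trended and robust priors, for genes with a mean of at least 10; this understates changes of low genes. Levels per kb use the union of GENCODE vM21 exons, which overstates length where an exon is rarely used. Alternatives were other pseudocounts, filters, scalings, priors, a replicate block, leaving out each library, and edgeR 4.0.16 and DESeq2 1.42.0 on recovered reads. The code was tested on simulated data.

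The kinesin classes and gene lists were chosen with earlier results of these data known. Values per library are given for mitotic, axonal transport and ciliary members with a mean of at least 100 and for any other called member; of each partner list, up to 4 called genes by smallest p, or up to 2 by highest mean where fewer than 3 were called, and always Cenpe, Kifc1, Kifap3, Klc1, Foxm1, Mybl2 and Prom1. Numa1, Kif17, Kif19b, Kif2a, Neurod6, Tubb3, Dcx, Map2 and Tbr1 were named after their values were seen.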

Additional observations from a re-analysis of the deposited data

How the results depend on the processing

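All 11 mitotic kinesins were called lower in the 16 alternatives run, and 15 of the 23 called kinesins kept their call wherever they were tested; no called kinesin changed direction. Without the trend and robust step of limma's prior, 1 axonal transport kinesin was called higher and 0 lower. With no filter on low values 1 was called lower, and with a mean of at least 100 the ciliary kinesins called higher numbered 1, because Kif9 and Kif19a were then not tested. With 1 library left out, axonal transport kinesins called lower numbered 1 to 2 and higher 2 to 3, ciliary kinesins called higher 2 to 3 and lower 1 to 2, other kinesins called lower 1 to 3, and all genes 1748 to 3071 higher and 2246 to 3227 lower. The cause of these losses was not tested. The 8 kinesins that lost a call were Kif1b, Kif21a, Kif21b, Kif26a, Kif26b, Kif3a, Kif3c and Kif5a. Signs turned for 4 kinesins that were not called: Kif1a (-0.048 with equal library totals, and -0.036 to 0.13 with 1 library left out), Kif5c (-0.18 to 0.11), Kif16b (-0.23 to 0.044) and Kif13b (-0.026 to 0.25). Whether replicate numbers pair the samples is not labelled. Deviations of same-numbered libraries correlated at -0.024 to 0.053 across genes, and those of unlike-numbered libraries at -0.075 to 0.072. With 3 libraries a group this shows no pairing but cannot exclude it. With the replicate block the mitotic kinesins called lower still numbered 11, and those of axonal transport 3 higher and 2 lower. Those of cilia numbered 3 higher and 1 lower and the others 3 lower, with 2662 genes higher and 2980 lower in all. Erythroid markers called higher numbered 2 and neuron markers 8 with the block. With 3 libraries a group, intervals are wide for members with few reads, such as Kif6 and Kif27.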
